A study of Drosophila melanogaster with 15 samples.

Results

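Cytosolic ribosomal protein genes of Drosophila melanogaster were followed through RNAi against 4 chromatin factors. The members were all genes whose FlyBase symbol begins with RpL or RpS, for the large and the small ribosomal subunit, and that had at least 1 read in 6 of the 15 libraries. Of 91 such symbols 88 passed, 52 of the large and 36 of the small subunit, among 11424 genes that passed the same filter and 17481 genes counted. RpL7-like and RpL10Aa had no read in any library, and RpS28-like had reads in too few. RpS12 was not analysed here, because the identifier that the reference gives for it was not matched to a counted gene. The gene sta, which encodes RpSA, is not a member by its symbol and is described with the ribosome-associated genes.

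RNA was taken from Kc167 cells, an established line derived from D. melanogaster embryos. Cells received double-stranded RNA against the A isoform of domino (DOM-A RNAi), against Tip60 (TIP60 RNAi), against the B isoform of domino (DOM-B RNAi) or against the histone variant H2A.V (H2A.V RNAi), with 3 replicates each. Control cells (CTRL, 3 replicates) received double-stranded RNA matching GST (replicates 1 and 3) or GFP (replicate 2), so an effect of the choice of control RNA and one of the replicate cannot be told apart. All groups are therefore RNAi-treated, and all carry cells of a second fly, D. virilis, added in a fixed ratio before RNA extraction. Reads of those cells set the scale of every normalized count below. The study calls the replicates of these transcriptomes biological.

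The domino gene encodes ATPases that remodel nucleosomes, and alternative splicing gives the DOM-A and DOM-B proteins. DOM-A works together with the acetyltransferase TIP60, and DOM-B is linked to incorporation of H2A.V. Cytosolic ribosomal proteins assemble with rRNA into the large and small subunits, and their mRNAs are among the most abundant of a growing cell. Fly ribosomal protein genes are well known from Minute mutants, in which loss of one copy slows development, and several of them exist as paralog pairs in which one copy is broadly expressed and the other is enriched in the germline.

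Libraries held between 8662976 and 14679536 reads in D. melanogaster genes and between 1766397 and 3037203 reads in D. virilis genes, 14.9% to 17.9% of counted reads. His2Av, the gene of H2A.V, had a log2 fold-change of -4.10 after H2A.V RNAi (SE 0.56, edgeR adjusted p-value 0.000233), and Tip60 one of -2.65 after TIP60 RNAi (SE 0.17, edgeR adjusted p-value 7.54e-07). Counts of the domino gene join both isoforms and check neither label, with 0.30 (DOM-A RNAi) and -0.10 (DOM-B RNAi) on the log2 scale. By western blot of Kc167 cells, the study reports that RNAi against either isoform did not deplete the other. Kc167 cells are usually described as hemocyte-like, that is, like blood cells, and all 6 hemocyte markers examined (srp, Hml, Pxn, He, Col4a1 and vkg) were detected in all groups. Their summed normalized count was 81140 to 94070 in DOM-A RNAi, 28320 to 90410 in TIP60 RNAi, 43250 to 54320 in DOM-B RNAi, 15890 to 35140 in H2A.V RNAi and 20940 to 26280 in CTRL libraries. Of the 6 markers, 5 were called higher after DOM-A RNAi and 4 after TIP60 RNAi, against 8.96% and 4.88% of all tested genes. After H2A.V RNAi, Pxn was called higher and He lower, against 1.23% and 11.5%, and none was called after DOM-B RNAi. The part of these changes in the ribosomal protein levels was not tested.

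Ribosomal protein transcripts were more abundant after DOM-A and TIP60 RNAi than after DOM-B and H2A.V RNAi, with CTRL in between. The summed normalized count of the 88 genes was 2893060, 2377490 and 2305610 in the DOM-A RNAi replicates 1 to 3 and 2748820, 2695490 and 2152700 in those of TIP60 RNAi. It was 1986530, 1662570 and 1520310 for DOM-B RNAi, 1500560, 1629840 and 1498310 for H2A.V RNAi, and 2196510, 2147160 and 1780350 for CTRL. Every DOM-A RNAi library was above every CTRL library, every H2A.V RNAi library was below every CTRL library, and the TIP60 and DOM-B RNAi libraries each overlapped with CTRL. The genes took 19.4% ± 1.27 of D. melanogaster gene reads in DOM-A RNAi, 19.5% ± 2.04 in TIP60 RNAi, 14.4% ± 1.63 in DOM-B RNAi, 15.02% ± 1.21 in H2A.V RNAi and 16.7% ± 1.20 in CTRL libraries (SD, n = 3 each). In bulk RNA on a spike-in scale, fewer harvested cells per spike-in cell and less RNA per cell cannot be told apart. The subunits moved together: the summed count of RpL genes was 1.56 to 1.66 times that of RpS genes in all 15 libraries.

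**Figure D1:**
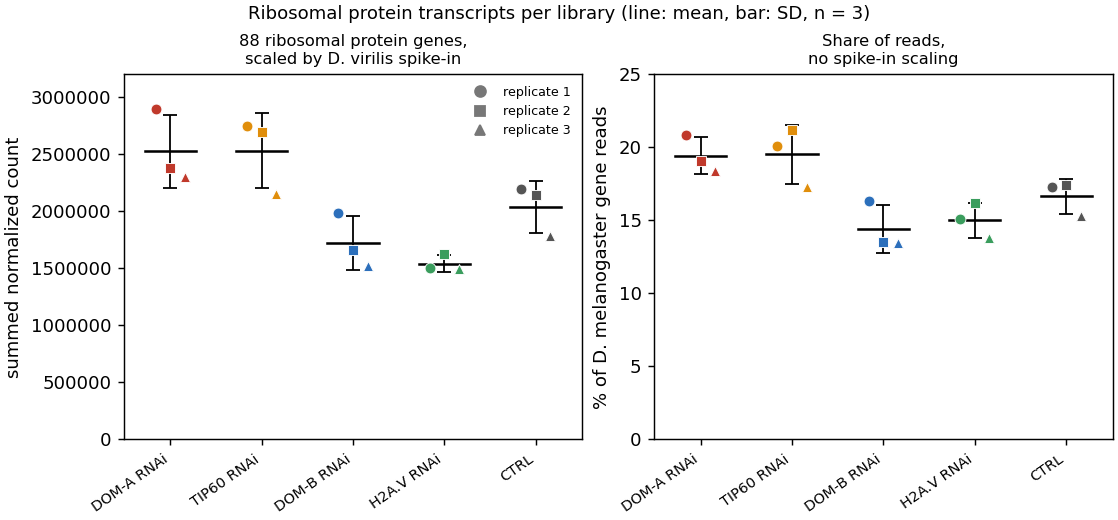
Left, the summed normalized count of the 88 ribosomal protein genes, and right, their share of D. melanogaster gene reads in percent, for each library by RNAi group. Points are libraries, with a marker shape per replicate, lines are means and bars are SD (n = 3); the DOM-A RNAi libraries lie between 2305610 and 2893060 and the CTRL libraries between 1780350 and 2196510.

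The 88 genes differed widely in level. Per kilobase of exon, the mean normalized count in CTRL was highest for RpL41, a very short protein of the large subunit, at 139105 ± 15943 (SD, n = 3), followed by RpL21 at 65434 ± 8554 and the stalk protein RpLP2 at 53112 ± 5914. The order of these genes was not tested. Apart from 9 lower copies of paralog pairs and the genes RpLP0-like and RpL24-like, a set marked out after seeing the levels, 77 genes spanned an 18.5-fold range down to RpL22 at 7502 ± 1709 per kilobase. Below RpL22 came RpLP0-like, RpL24-like and all lower copies but RpS14b (7760 ± 1565), with RpS19b at 911 ± 228, RpS5b at 86.5 ± 26.9 and RpS10a at 29.7 ± 4.75 per kilobase. RpL37-2 and RpL22-like had at most 2 and 3 reads in a CTRL library, and RpS28a had none in CTRL.

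DOM-A RNAi asked whether loss of the TIP60-linked isoform alters these transcripts. After DOM-A RNAi, 16 of 88 genes were called higher than in CTRL, against a background of 8.96% of all tested genes called higher, and 1 was called lower, against 10.4% called lower. A call is an adjusted p-value under 0.01 from edgeR's quasi-likelihood test, adjusted over all 11424 genes by the Benjamini-Hochberg method. The median log2 fold-change of the 88 genes was 0.29, beside 0.03 for all tested genes, and 73 of 88 had a positive value. In 36 of 88 genes all 3 DOM-A RNAi libraries were above all 3 CTRL libraries, which was so for 18.4% of all tested genes.

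The largest changes among the called genes were in components spread over both subunits. RpL39, a small protein at the exit tunnel of the large subunit, had normalized counts of 25602, 18399 and 20456 after DOM-A RNAi, against 14549, 12998 and 12755 in CTRL. Its groups did not overlap, and the log2 fold-change was 0.67 (SE 0.14, edgeR adjusted p-value 0.00281). RpS3A, near the site where mRNA leaves the small subunit, had 46596, 43346 and 36045 normalized counts after DOM-A RNAi, against 27281, 32326 and 22669 in CTRL (log2 fold-change 0.62, SE 0.12, edgeR adjusted p-value 0.00149). RpS6, the small subunit protein phosphorylated by S6 kinase, had 58435, 56792 and 46740 after DOM-A RNAi, against 37706, 39622 and 30560 in CTRL (log2 fold-change 0.59, edgeR adjusted p-value 0.00323). In each of these 3 genes the lowest DOM-A RNAi library was above the highest CTRL library. RpL12 (0.58), RpL8 (0.54), RpS27 (0.52), RpL10 (0.52), RpS16 (0.52), RpS10b (0.50), RpS28b (0.49), RpS23 (0.47), RpS19a (0.47) and RpS15Aa (0.45) were also among those called higher, the value being the log2 fold-change.

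The stalk, the lateral protrusion that recruits translation factors, showed unequal values. RpLP1 had 43387, 44688 and 33234 normalized counts after DOM-A RNAi, against 27962, 29198 and 23267 in CTRL (log2 fold-change 0.59, edgeR adjusted p-value 0.00251). RpLP0, the stalk base, had a log2 fold-change of 0.34 (edgeR adjusted p-value 0.0439) and RpLP2 one of 0.38 (edgeR adjusted p-value 0.0332), so neither was called. Of the ubiquitin fusions, whose precursors release ubiquitin and a ribosomal protein, RpS27A was called higher at 0.51 (edgeR adjusted p-value 0.00503). RpL40 had 16561, 15044 and 13799 after DOM-A RNAi, against 17315, 17495 and 14279 in CTRL, with overlapping groups and a log2 fold-change of -0.11 (edgeR adjusted p-value 0.466). RpS20 was lower in value, at -0.49, but was not called (edgeR adjusted p-value 0.0458).

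The number of members called after DOM-A RNAi (17) rested on the model and on single libraries. Without the replicate block it was 2, RpL39 and RpS19b, with edgeR adjusted p-values of 0.0181 for RpS3A and 0.0215 for RpS6. With the block it was 1 without DOM-A replicate 1, CTRL replicate 1 or CTRL replicate 3, 3 without DOM-A replicate 3, 8 without CTRL replicate 2 and 17 without DOM-A replicate 2, while the median log2 fold-change stayed between 0.25 and 0.34.

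TIP60 RNAi gave values near those of DOM-A RNAi. The number called higher than in CTRL was 9 of 88, against a background of 4.88%, and 1 was called lower, against 8.43%. For all 88 genes the median log2 fold-change was 0.31, beside -0.04 for all tested genes, with 78 of 88 positive, and in 31 genes all TIP60 RNAi libraries were above all CTRL libraries, as in 14.8% of all tested genes. All 9 genes called higher after TIP60 RNAi, with RpL39, RpLP1, RpS6, RpL12, RpS15Aa, RpL10, RpS19a and RpS16 among them, were also among the 16 called higher after DOM-A RNAi, and both comparisons share the CTRL libraries.

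RpL39 had 24186, 23838 and 18474 normalized counts after TIP60 RNAi, against 14549, 12998 and 12755 in CTRL (log2 fold-change 0.72, SE 0.14, edgeR adjusted p-value 0.00249). RpLP1 had 44752, 44430 and 32602 after TIP60 RNAi, against 27962, 29198 and 23267 in CTRL (log2 fold-change 0.59, SE 0.12, edgeR adjusted p-value 0.00332). The groups of neither gene overlapped. RpS6 also had a log2 fold-change of 0.59 (edgeR adjusted p-value 0.00429). RpL18 had the highest value after that of RpS28a, 0.73, but was not called (edgeR adjusted p-value 0.021), with one low CTRL library of 5566 beside 13074 and 10175. RpL40 (-0.10) and RpS20 (-0.21) again lay below 0 and were not called. The count of 10 genes called became 3 without the replicate block, 0 without TIP60 replicate 1, 1 without TIP60 replicate 2, CTRL replicate 1 or CTRL replicate 3, 2 without CTRL replicate 2 and 5 without TIP60 replicate 3.

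The direct comparison of DOM-A with TIP60 RNAi, which uses no CTRL library, called no ribosomal protein gene in edgeR or in DESeq2, and 1 of 88 had an unadjusted p under 0.05 in edgeR. Of all tested genes, 0.0175% were called higher and 0% lower. The median log2 fold-change of DOM-A against TIP60 RNAi was -0.01 for the 88 genes, beside 0.06 for all tested genes, and the middle 50% of the genes lay between -0.08 and 0.04. RpS19b was lowest of those with more than a few reads, at -0.56 (SE 0.17, edgeR adjusted p-value 0.201), and RpL6 was highest of these, at 0.21 (edgeR adjusted p-value 0.488).

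**Figure D2:**
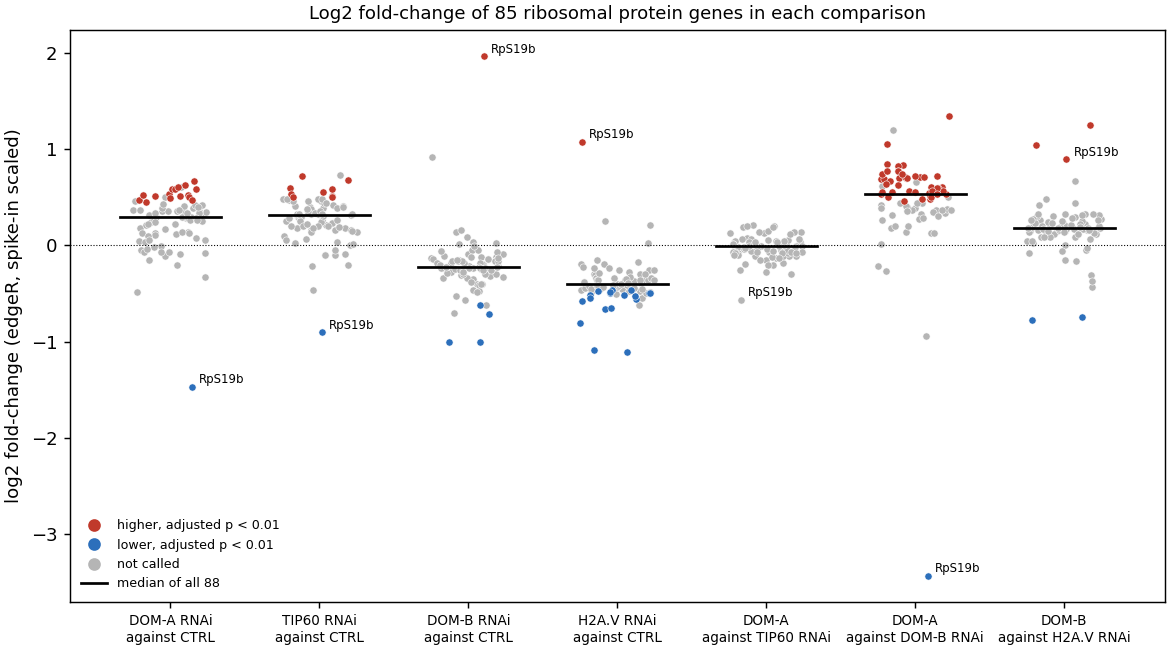
Log2 fold-change of 85 ribosomal protein genes in each of 7 comparisons (vertical axis), leaving out RpS28a, RpL22-like and RpL37-2, which had few reads. Points are genes, red or blue where the edgeR adjusted p-value was under 0.01, and black lines are medians of all 88 genes: 0.29, 0.31, -0.22, -0.41, -0.01, 0.53 and 0.18 from left to right. The last turns negative (-0.12) with TMM scaling on D. melanogaster counts, where the median of all tested genes goes from 0.30 to -0.0064. RpS19b lies on the opposite side of 0 from the median in the first 4 comparisons and in the comparison of DOM-A with DOM-B RNAi.

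After DOM-B RNAi most values lay below those of CTRL, and few passed the test. Of 88 genes, 4 were called lower, against a background of 2.33%, and 1 was called higher, against 2.74%. Over the 88 genes the median was -0.22, beside 0.06 for all tested genes, with 79 of 88 negative. In 13 genes all DOM-B RNAi libraries were below all CTRL libraries, as in 13% of all tested genes.

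RpL3, a core protein of the peptidyl transferase region, had 29588, 18527 and 21816 normalized counts after DOM-B RNAi, against 58868, 37844 and 43486 in CTRL (log2 fold-change -1.004, SE 0.15, edgeR adjusted p-value 0.00117). RpL22, a peripheral large subunit protein, had 5030, 3058 and 4227 after DOM-B RNAi, against 10253, 6524 and 7980 in CTRL (log2 fold-change -1.004, SE 0.18, edgeR adjusted p-value 0.0027). Both sets of libraries were separate. RpL10Ab, the protein named uL1 across kingdoms, had 21503, 16154 and 16084 after DOM-B RNAi, against 33588, 27561 and 26529 in CTRL (log2 fold-change -0.71, SE 0.13, edgeR adjusted p-value 0.00341). RpS2, of the small subunit near the mRNA entry, had 18905, 16210 and 12963 after DOM-B RNAi, against 27910, 24948 and 20629 in CTRL (log2 fold-change -0.62, SE 0.11, edgeR adjusted p-value 0.00356). RpS20 (-0.62) and RpS21 (-0.57) were not called, with edgeR adjusted p-values of 0.0319 and 0.0333.

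RpL3, RpL22 and RpL10Ab each have snoRNA genes annotated inside them on the same strand, as do 27 of the 88 genes. Of those 27 genes, 3 were called lower after DOM-B RNAi, beside 1 of the other 61. The median log2 fold-change was -0.30 in the 27 genes and -0.19 in the other 61, a difference with no test. After H2A.V RNAi, the same medians were -0.41 and -0.40. With one library left out, the number of members called after DOM-B RNAi (5) became 1 without CTRL replicate 1, 2 without DOM-B replicate 1 or CTRL replicate 3, 3 without DOM-B replicate 3 or CTRL replicate 2 and 4 without DOM-B replicate 2. Without the replicate block RpS19b alone stayed called, with edgeR adjusted p-values of 0.0151 for RpL3, 0.0121 for RpL22, 0.0295 for RpL10Ab and 0.0713 for RpS2.

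**Figure D3:**
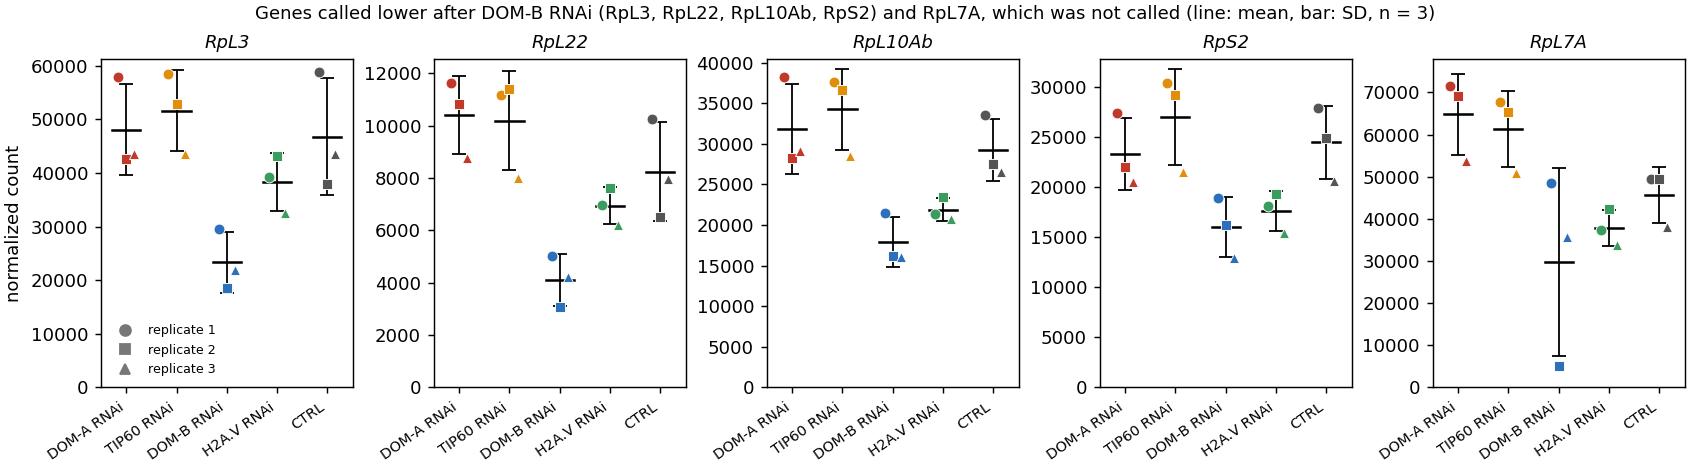
Normalized counts (vertical axes from 0) of RpL3, RpL22, RpL10Ab and RpS2, called lower after DOM-B RNAi, and of RpL7A, which was not called. Points are libraries by RNAi group with a marker shape per replicate, lines are means and bars SD (n = 3); RpL7A is at 5020 in DOM-B replicate 2 and at 33698 or more in every other library.

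RpL7A, a large subunit protein, showed how much one library could weigh. It had 48578, 5020 and 35724 normalized counts after DOM-B RNAi, against 49573, 49546 and 38068 in CTRL. Only DOM-B replicate 2 was low, 3.05 log2 units below the other DOM-B libraries, and the log2 fold-change of -0.70 was not called (SE 0.49, edgeR adjusted p-value 0.383). The same library held 53192 normalized counts of RpL15, beside 28651 and 22716 in DOM-B replicates 1 and 3. DOM-A replicate 2 held 5855 of RpL29, beside 17503 and 13338 in DOM-A replicates 1 and 3. Among the 83 genes with a mean of at least 100 normalized counts, 5 gene values of single libraries stood more than 1 log2 unit from the mean of the other libraries of their group, and 4 of these values were in replicate 2 of a group.

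The isoforms were also compared directly. In the comparison of DOM-A with DOM-B RNAi, 46 of 88 genes (52.3%) were called higher in DOM-A RNAi, against a background of 7.28%, and 1 was called lower, against 10.1%. The median over the 88 genes was 0.53, beside -0.02 for all tested genes, and 83 of 88 were positive. In 59 genes all DOM-A RNAi libraries were above all DOM-B RNAi libraries, as in 16.1% of all tested genes. Of the large subunit 26 of 52 genes were called higher, and of the small subunit 20 of 36, with medians of 0.52 and 0.53. Against CTRL the gap between the subunits varied with the comparison. After DOM-A RNAi, 9.62% of large and 30.6% of small subunit genes were called higher, against 8.96% of all tested genes. After TIP60 RNAi, 7.69% and 13.9% were called higher, against 4.88%. After H2A.V RNAi, 15.4% and 27.8% were called lower, against 11.5%. After DOM-B RNAi, 5.77% of large and 2.78% of small subunit genes were called lower, against 2.33%. The medians had the other order after DOM-A RNAi, 0.32 for large and 0.26 for small subunit genes. They were -0.40 and -0.42 after H2A.V RNAi, and these differences were not tested. Without the 11 lower copies and like-named genes set apart above, the remaining 77 genes all had a positive value in DOM-A against DOM-B RNAi.

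Of these 46 genes, 16 were also called higher in DOM-A RNAi against CTRL, 4 were also called lower in DOM-B RNAi against CTRL and 26 were called in neither. RpL22 had 11618, 10846 and 8762 normalized counts after DOM-A RNAi, against 5030, 3058 and 4227 after DOM-B RNAi (log2 fold-change 1.35, SE 0.18, edgeR adjusted p-value 0.000136). RpL3 had 57811, 42681 and 43570 after DOM-A RNAi, against 29588, 18527 and 21816 after DOM-B RNAi (log2 fold-change 1.05, SE 0.15, edgeR adjusted p-value 0.000283). In both genes the DOM-A RNAi libraries were all higher than the DOM-B RNAi libraries. In DOM-A RNAi against CTRL their log2 fold-changes were 0.34 and 0.04, neither of them called.

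RpS6 had 58435, 56792 and 46740 normalized counts after DOM-A RNAi, against 35538, 27207 and 27272 after DOM-B RNAi (log2 fold-change 0.84, SE 0.13, edgeR adjusted p-value 0.000333). RpL10Ab (0.83), RpL12 (0.82), RpS27A (0.77), RpLP1 (0.77) and RpL39 (0.77) were also called higher in DOM-A than in DOM-B RNAi. Of the stalk, RpLP0 was called as well (0.55, edgeR adjusted p-value 0.00363), and RpLP2 was not (0.37, edgeR adjusted p-value 0.0389). RpL40 was among the lowest of the positive values, at 0.13 (edgeR adjusted p-value 0.414). The count of 47 called was 22 without the replicate block and 25 when libraries were scaled by total D. virilis reads, with a median of 0.28. It was 21 without DOM-A replicate 1, 25 without DOM-A replicate 3, 31 without DOM-B replicate 2 and 22 without DOM-B replicate 3, and 53 or fewer without any other library.

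**Figure D4:**
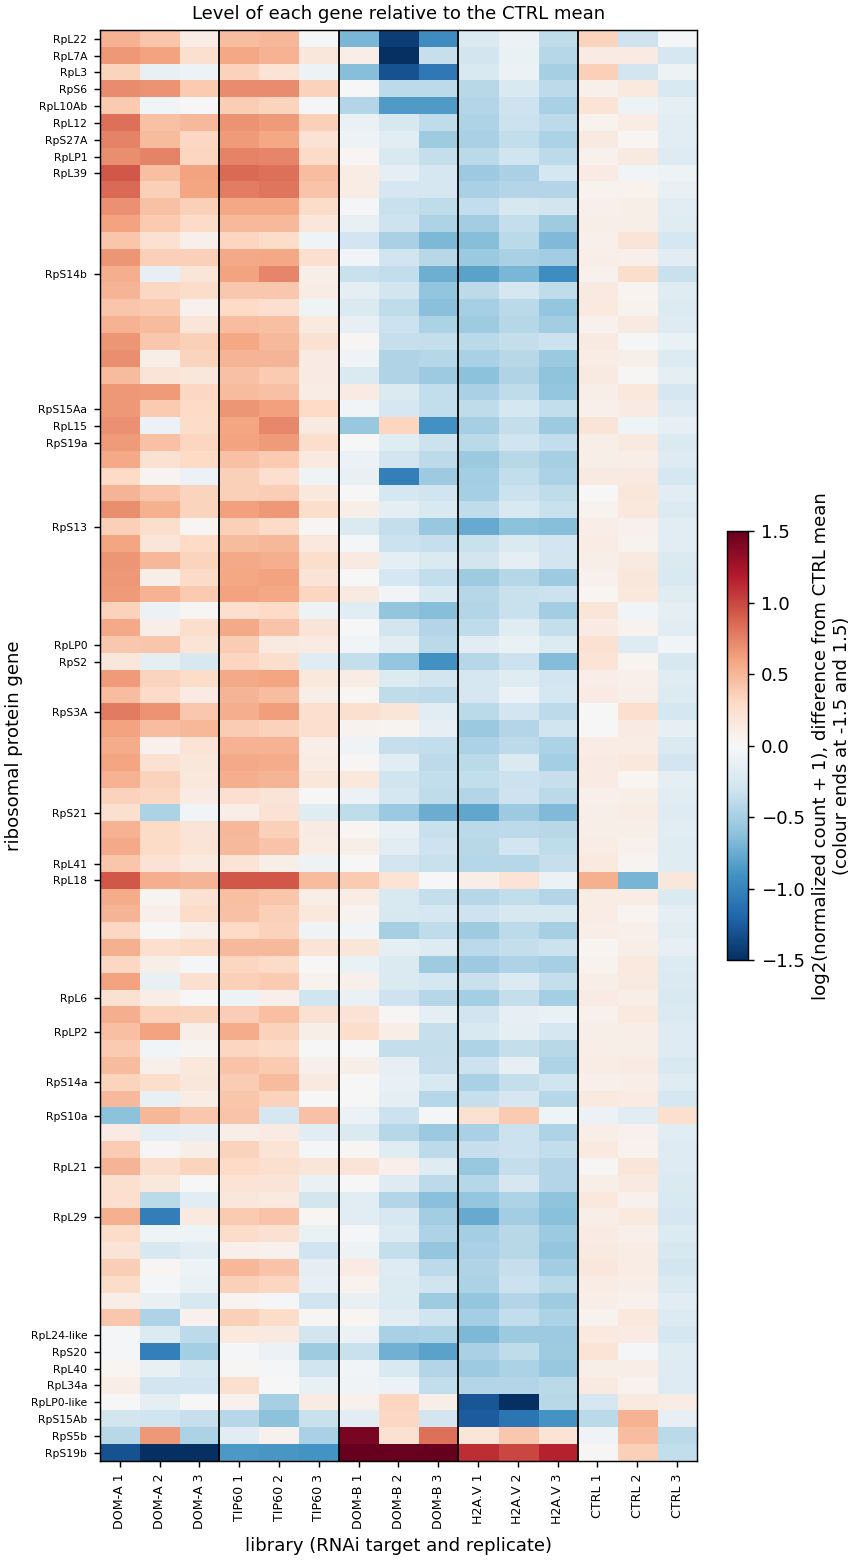
Each of 85 ribosomal protein genes (rows, ordered by the log2 fold-change of DOM-A against DOM-B RNAi, leaving out RpS28a, RpL22-like and RpL37-2) in each of the 15 libraries (columns). Rows with a name are genes described in the text, and colour is the difference in log2(normalized count + 1) from the CTRL mean, red above and blue below, with the scale ending at -1.5 and 1.5; most rows are red in DOM-A and TIP60 RNAi and blue in H2A.V RNAi, and RpS19b, in the last row, runs the other way.

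H2A.V RNAi gave the lowest ribosomal protein levels on the spike-in scale. Of 88 genes, 18 were called lower than in CTRL, against a background of 11.5%, and 1 was called higher, against 1.23%. The median log2 fold-change was -0.41, beside -0.22 for all tested genes, with 83 of 88 negative, and in 71 genes all H2A.V RNAi libraries were below all CTRL libraries, as in 29.4% of all tested genes. These values depended on the scale. The log2 ratio of the D. virilis to the D. melanogaster size factor was 0.10 to 0.32 in H2A.V RNAi libraries, against -0.16 to 0.10 in the other 12 libraries. Scaled on D. melanogaster counts by TMM, the median of the 88 genes was -0.15, beside 0.02 for all tested genes. Then 3 were called, RpS15Ab and RpLP0-like lower and RpS19b higher.

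RpS15Ab, a minor copy of a small subunit protein, had 291, 323 and 370 normalized counts after H2A.V RNAi, against 521, 996 and 637 in CTRL (log2 fold-change -1.10, SE 0.19, edgeR adjusted p-value 0.00111). RpLP0-like resembles the yeast factor Mrt4, which holds the place of the stalk base during assembly. It had 360, 272 and 657 after H2A.V RNAi, against 733, 968 and 946 in CTRL (log2 fold-change -1.09, SE 0.23, edgeR adjusted p-value 0.00393), with H2A.V replicate 3 nearest to CTRL. RpL24-like, which resembles the yeast assembly factor Rlp24, had a log2 fold-change of -0.58 (edgeR adjusted p-value 0.00521). RpS14b (-0.81), RpS13 (-0.66), RpS21 (-0.65), RpL35 (-0.56), RpL28 (-0.55), RpL40 (-0.53), RpL27A (-0.52) and RpS30 (-0.52) were also called lower.

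RpS13, a small subunit protein, had 10445, 11462 and 11314 normalized counts after H2A.V RNAi, against 18773, 18361 and 15744 in CTRL, without overlap (edgeR adjusted p-value 0.00117). It was called with every library left out, and not called under the scales made from D. melanogaster counts. Of the stalk proteins, RpLP0 (-0.16) and RpLP2 (-0.20) were near the upper end of values. RpLP1 (-0.36) was near the median of the 88 genes, -0.41, and none of these stalk proteins was called. RpS2 was the 1 gene called lower both after H2A.V RNAi (-0.47) and after DOM-B RNAi (-0.62). The number called after H2A.V RNAi (19) was 3 without the replicate block (RpS19b, RpS15Ab and RpS13), 2 without H2A.V replicate 1, 4 without H2A.V replicate 2, CTRL replicate 1 or CTRL replicate 3, 3 without CTRL replicate 2 and 26 without H2A.V replicate 3.

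DOM-B and H2A.V RNAi, compared directly, separated a few genes. In DOM-B RNAi, 3 of 88 genes were called higher than in H2A.V RNAi, against a background of 10.2%, and 2 were called lower, against 0.797%. With a median of 0.18 over the 88 genes, beside 0.30 for all tested genes, most values were positive. The median was -0.12 with TMM (trimmed mean of M-values) and -0.11 with median-of-ratios scaling on D. melanogaster counts. All tested genes then had medians of -0.0064 and 0.0091, so the 88 genes lay below them on each of these scales. In 29 genes all DOM-B RNAi libraries were above all H2A.V RNAi libraries, as in 30.1% of all tested genes. RpLP0-like had 913, 1095 and 932 normalized counts in DOM-B RNAi libraries, against 360, 272 and 657 in H2A.V RNAi libraries (log2 fold-change 1.25, SE 0.23, edgeR adjusted p-value 0.00228). RpS15Ab had 618, 855 and 573 in DOM-B RNAi libraries, against 291, 323 and 370 in H2A.V RNAi libraries (log2 fold-change 1.04, SE 0.19, edgeR adjusted p-value 0.00214). RpL22 (-0.77, edgeR adjusted p-value 0.00722) and RpL3 (-0.74, edgeR adjusted p-value 0.00438) were lower in DOM-B than in H2A.V RNAi. No member was called when only these groups were fitted, or without DOM-B replicate 1 or H2A.V replicate 2. The count was 1 without H2A.V replicate 1 and 3 without DOM-B replicate 2.

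RpS19b departed from the other genes. RpS19 is a small subunit protein that in flies is encoded by RpS19a on the X chromosome (build dm6, 16637894 to 16639249, plus strand) and by RpS19b on chromosome arm 3R (23932729 to 23933530, minus strand), the copy known from the germline. RpS19b had 239, 210 and 208 normalized counts after DOM-A RNAi, 326, 323 and 318 after TIP60 RNAi, 2876, 1975 and 2240 in DOM-B RNAi libraries, 1284, 1193 and 1323 in H2A.V RNAi libraries, and 600, 762 and 458 in CTRL. No 2 groups overlapped.

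Against CTRL, the log2 fold-change of RpS19b was -1.47 after DOM-A RNAi (SE 0.17, edgeR adjusted p-value 3.39e-05) and -0.91 after TIP60 RNAi (SE 0.17, edgeR adjusted p-value 0.00141). It was 1.96 after DOM-B RNAi (SE 0.16, edgeR adjusted p-value 3.1e-05) and 1.0703 after H2A.V RNAi (SE 0.16, edgeR adjusted p-value 0.000463). DOM-A against DOM-B RNAi gave -3.43 (SE 0.18, edgeR adjusted p-value 6.83e-08), and DOM-B against H2A.V RNAi gave 0.89 (SE 0.16, edgeR adjusted p-value 0.00189). It was the 1 member called lower in DOM-A and TIP60 RNAi and the 1 called higher in DOM-B and H2A.V RNAi against CTRL. The calls after DOM-A, DOM-B and H2A.V RNAi held with every library left out and under all 11 other alternatives, with log2 fold-changes between -1.64 and -1.22, between 1.79 and 2.27, and between 0.90 and 1.37. The call after TIP60 RNAi was lost in 1 of 6 fits without a library, at a highest edgeR adjusted p-value of 0.0112. The call in DOM-B against H2A.V RNAi was kept in 8 of 11 alternatives and in 3 of 6 fits without a library, with values down to 0.59, and was lost under both scales made from D. melanogaster counts and with only these groups fitted.

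RpS19a had 40706, 35327 and 32550 normalized counts after DOM-A RNAi, 39450, 40488 and 31297 after TIP60 RNAi, 26193, 22941 and 20764 in DOM-B RNAi libraries, 19705, 21157 and 20189 in H2A.V RNAi libraries, and 27591, 28578 and 22439 in CTRL. It was called higher after DOM-A RNAi (0.47) and TIP60 RNAi (0.50) and not called after DOM-B RNAi (-0.17) or H2A.V RNAi (-0.35). Per kilobase of exon, RpS19b made up 1.13% ± 0.05 of the pair after DOM-A RNAi, 1.63% ± 0.22 after TIP60 RNAi, 15.99% ± 1.77 in DOM-B RNAi libraries, 10.5% ± 0.79 in H2A.V RNAi libraries and 4.14% ± 0.57 in CTRL (SD, n = 3 each). Reads that matched both copies had been discarded in mapping, so these shares rest on reads unique to one copy.

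**Figure D5:**
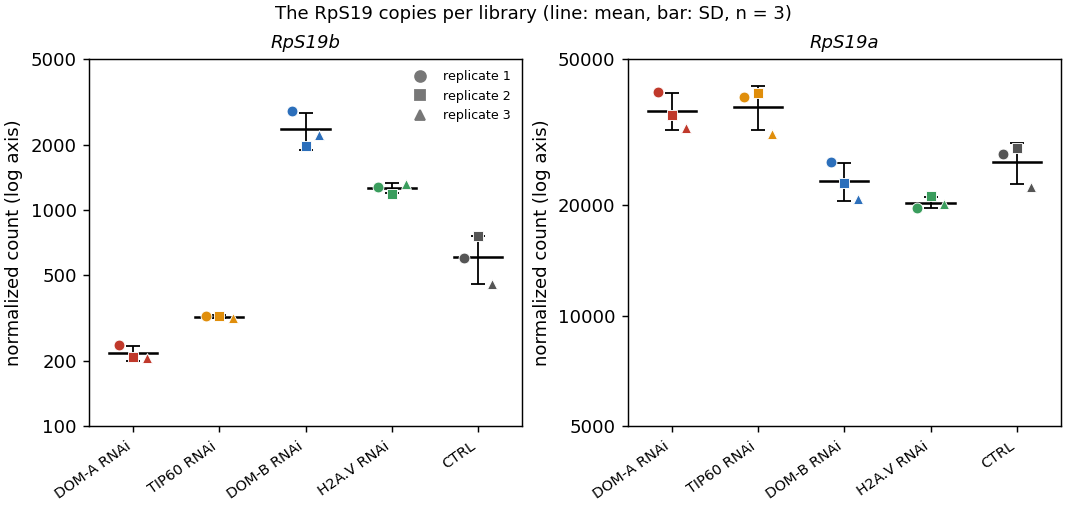
Normalized counts on log axes of RpS19b (left) and RpS19a (right) in each library by RNAi group. Points are libraries with a marker shape per replicate, lines are means and bars SD (n = 3); RpS19b lies between 208 and 239 in DOM-A RNAi and between 1975 and 2876 in DOM-B RNAi, while RpS19a lies between 32550 and 40706 in DOM-A RNAi and between 20764 and 26193 in DOM-B RNAi.

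Germline markers did not move as one group beside RpS19b. Of 7 examined, bam had 117 to 195 normalized counts after DOM-A RNAi, 131 to 300 after TIP60 RNAi, 586 to 815 in DOM-B RNAi libraries, 666 to 793 in H2A.V RNAi libraries and 415 to 449 in CTRL. The helicase gene vas had at most 168 normalized counts, in DOM-B RNAi, and 2.22 to 9.53 in CTRL, and was called higher after DOM-A, DOM-B and H2A.V RNAi. The piRNA factor piwi had 334 to 873 in DOM-B RNAi libraries and 310 to 875 in H2A.V RNAi libraries, against 52.5 to 170 in CTRL. By contrast, aub had 818 to 1452 in DOM-B RNAi libraries and 553 to 907 in H2A.V RNAi libraries, against 2296 to 2766 in CTRL. Summed over the 7 genes, also AGO3, orb and osk, the normalized count was 3967 to 5281 after DOM-A RNAi, 4085 to 5314 after TIP60 RNAi, 2635 to 4791 in DOM-B RNAi libraries, 2679 to 3113 in H2A.V RNAi libraries and 4010 to 5092 in CTRL, and the part of these genes in the RpS19b result was not tested.

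Other lower copies varied in their response, and RpS15Ab is described above. RpS5b, like RpS19b a copy enriched in the germline, had 215, 93.3 and 142 normalized counts after DOM-B RNAi, against 76.7, 110 and 59.9 in CTRL, with overlap and a log2 fold-change of 0.92 (SE 0.32, edgeR adjusted p-value 0.072). RpS10a had 7 to 33 reads in a library and differed from CTRL by no more than its SE in any RNAi group. RpS28a had no read in any CTRL library and 15 reads over the DOM-B RNAi libraries, with 9, 5 and 1 in replicates 1 to 3. That was 4.69-fold above a floor of 3 reads over the CTRL libraries together, a bound resting mainly on DOM-B replicate 1. The same bound was 3.6-fold for 14 reads after H2A.V RNAi, and no comparison called the gene. RpS28a passed the read filter through the RNAi groups alone, and placing it at its bound left each median over the 88 genes as given.

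RpS14a and RpS14b stand side by side on the X chromosome and encode the same protein, so their shared reads may have been discarded and their split is uncertain. RpS14b made up 32.7% ± 4.58 of the pair per kilobase after DOM-A RNAi, 35.77% ± 2.565 after TIP60 RNAi, 28.1% ± 1.77 in DOM-B RNAi libraries, 27.3% ± 2.49 in H2A.V RNAi libraries and 33.5% ± 2.38 in CTRL. RpS15Ab made up 5.54% ± 0.51 of its pair after DOM-A RNAi, 4.81% ± 1.04 after TIP60 RNAi, 10.2% ± 2.27 in DOM-B RNAi libraries, 5.58% ± 0.69 in H2A.V RNAi libraries and 9.18% ± 2.49 in CTRL (SD, n = 3 each). RpL34a was between 19.7% and 23.1% of its pair in the group means.

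The genes are spread over the genome, with 17 on arm 2L, 21 on 2R, 13 on 3L, 22 on 3R, 14 on X and 1 on chromosome 4. All 14 X-linked genes had positive values after DOM-A RNAi, with a median log2 fold-change of 0.41, beside 0.28 for the 74 others. The same medians were 0.42 and 0.26 after TIP60 RNAi and 0.69 and 0.49 in DOM-A against DOM-B RNAi, and -0.34 and -0.42 after H2A.V RNAi. After DOM-B RNAi they were -0.23 and -0.22, and in DOM-B against H2A.V RNAi 0.16 and 0.19. These differences between sets were not tested.

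Genes that act with the ribosome were taken from lists and did not follow one pattern. Of 27 translation initiation genes, 7 were called lower and 1 higher after DOM-A RNAi, 1 lower and 1 higher after TIP60 RNAi, 8 lower in DOM-B RNAi libraries and 12 lower in H2A.V RNAi libraries. Of all tested genes, 10.4%, 8.43%, 2.33% and 11.5% were called lower in these comparisons. A subunit of eIF3, the factor that binds the small subunit during initiation, eIF3m had a log2 fold-change of -1.10 after DOM-A RNAi (edgeR adjusted p-value 3.54e-05). The gene called higher after DOM-A and TIP60 RNAi was pAbp, the poly(A)-binding protein, at 0.50 and 0.49. Of 7 elongation genes, eEF2 (0.58) and eEF1alpha2 (0.77) were called higher after DOM-A RNAi, and the same genes after TIP60 RNAi (0.50 and 0.80), against 8.96% and 4.88% of all tested genes. After DOM-B RNAi, eEF1alpha2 was called higher (1.57).

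Of 4 ribosome-associated genes, Rack1, a scaffold on the small subunit, and sta, the RpSA protein, were called lower after DOM-B RNAi, at -0.91 (edgeR adjusted p-value 0.00295) and -0.73 (edgeR adjusted p-value 0.00569). Of all tested genes, 2.33% were called lower in that comparison. Rack1 was higher by 1.02 in DOM-A than in DOM-B RNAi (edgeR adjusted p-value 0.000435). Of 16 ribosome biogenesis genes tested, Myc, a transcription factor known to promote ribosome synthesis, was called higher after DOM-A RNAi (1.89, edgeR adjusted p-value 1.76e-05) and TIP60 RNAi (1.25, edgeR adjusted p-value 0.000512). The list as a whole did not rise, with medians of -0.05 after DOM-A RNAi and -0.10 after TIP60 RNAi. In these comparisons 2 and 1 of the 16 were called higher, against 8.96% and 4.88% of all tested genes. In that list 13 of 16 were called higher in DOM-B than in H2A.V RNAi, with a median of 0.81, among them Fib (0.67), Nop56 (1.16) and Gar1 (0.98), against 10.2% of all tested genes and a median of 0.30. That overall median was -0.0064 with TMM and 0.0091 with median-of-ratios scaling on D. melanogaster counts, and the list was not refitted on those scales.

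Of Xrp1, a factor induced in Minute cells, and its partner Irbp18, Irbp18 was called lower after DOM-A RNAi (-1.10, edgeR adjusted p-value 7.83e-05) and TIP60 RNAi (-0.96, edgeR adjusted p-value 0.000352). It was not called after DOM-B RNAi (0.56, edgeR adjusted p-value 0.0176), and Xrp1 was called in no comparison. None of the promoter factors Trf2, M1BP and Dref was called against CTRL. Of 7 non-coding snoRNA hosts, Uhg3 was called higher after H2A.V RNAi (0.93), against 1.23% of all tested genes. Uhg4 was called lower after TIP60 RNAi (-0.77), against 8.43%.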

How the data were processed

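Total RNA of 15 libraries was poly(A)-selected, sequenced as single reads from a strand-specific kit and mapped by the authors with STAR 2.5.3a to the genomes of D. melanogaster (dm6) and D. virilis, with reads of several map positions discarded. The deposited values are raw counts of reads per gene, 1 table per species and library, and the counts of the strand that holds the genes' reads were used. Between 4.74% and 6.99% of mapped D. melanogaster reads fell in no gene or in several and were left out.

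Normalized counts are counts divided by size factors taken from D. virilis genes alone (median-of-ratios method). Genes with at least 1 read in 6 libraries (11424) were tested with edgeR 4.0.16 in R 4.3.3, by a quasi-likelihood fit of all 15 libraries with group and replicate as terms, replicate being a term in the study's own model. P-values were adjusted over all tested genes by the Benjamini-Hochberg method, with a threshold of 0.01. DESeq2 1.42.0, other scalings, filters and sets of libraries were tried as alternatives. Scripts were tested on simulated data.

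The text names, for each comparison, genes among the 5 highest and 5 lowest log2 fold-changes, the stalk proteins, ubiquitin fusions, paralogs and RpS6 and RpL10Ab; other called members are named for completeness, chosen after their values were seen, as were the sets of snoRNA hosts, X-linked genes and lower copies. The members and all gene lists were chosen with earlier results of these data known. Symbols, positions and snoRNA genes came from an Ensembl annotation with dm6 coordinates, newer than the one used for counting. Results of some called members are not reported here.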

Additional observations from a re-analysis of the deposited data

How the results depend on the processing

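The direction of the median over the ribosomal protein genes held in every alternative for DOM-A, TIP60, DOM-B and H2A.V RNAi against CTRL and for DOM-A against DOM-B RNAi, while the counts called moved widely. Counting all genes called in either direction, they were 17 for DOM-A, 10 for TIP60, 5 for DOM-B and 19 for H2A.V RNAi against CTRL, 47 for DOM-A against DOM-B RNAi and 5 for DOM-B against H2A.V RNAi.

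Without the replicate block these counts were 2, 3, 1, 3, 22 and 3. Samples of the same replicate number varied together, with mean correlations of 0.168 to 0.271, although the lowest single pair was at 0.0407. The means for different numbers, -0.134 to -0.0839, follow from these because each gene was centred within its group. They add nothing in favour of the block. With DESeq2 the counts were 33, 32, 14 and 57 against CTRL and 10 for DOM-B against H2A.V RNAi. At an adjusted p-value under 0.05 they were 35, 31, 14 and 59 against CTRL and 8 for DOM-B against H2A.V RNAi. With only the groups compared, TIP60 RNAi had 35, DOM-B RNAi 16, H2A.V RNAi 12, DOM-A against DOM-B RNAi 28 and DOM-B against H2A.V RNAi 0. With at least 10 reads in every library, TIP60 RNAi had 17, H2A.V RNAi 31 and DOM-B against H2A.V RNAi 8. Shares of all tested genes called are not given for the alternatives or for fits without a library. Such counts show dependence on the settings and cannot be set against a background.

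Scaling on D. melanogaster counts by TMM gave 16 for TIP60 RNAi (median 0.37) and 3 for H2A.V RNAi (median -0.15), and by median-of-ratios 19 (0.42) and 3 (-0.11). The medians were then 0.59 for DOM-A against DOM-B RNAi under both, and reversed to -0.12 and -0.11 for DOM-B against H2A.V RNAi. Scaling on total D. virilis reads gave 3 for H2A.V RNAi (median -0.21) and 25 for DOM-A against DOM-B RNAi (0.28), and medians of 0.15 for TIP60 and -0.071 for DOM-B RNAi. Relative to all tested genes, whose median moved by 0.24 and 0.29 for H2A.V RNAi under the D. melanogaster scalings, the cause of these shifts was not tested. With only replicates 1 and 3, chosen after seeing the data, DOM-B RNAi had 8 genes called.

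Leaving out 1 library gave 1 to 17 genes for DOM-A, 0 to 5 for TIP60, 1 to 4 for DOM-B and 2 to 26 for H2A.V RNAi against CTRL, 21 to 53 for DOM-A against DOM-B RNAi and 0 to 6 for DOM-B against H2A.V RNAi. The median was then 0.26 to 0.35 for TIP60 RNAi and 0.48 to 0.58 for DOM-A against DOM-B RNAi. Single genes were followed only where they were already called with the settings above, mostly those of largest change. A change of direction was therefore unlikely from the start. Of 252 values of these genes without a library, 129 stayed called, 123 did not and 0 changed direction. Of 462 under the other alternatives, 413 stayed called, 49 did not and 0 changed direction. With 3 libraries a group, genes that differ by little from CTRL are at the limit of the test.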
